A study of Mus musculus with 12 samples.

Results

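Testis RNA of 2 groups of F1 mice was compared gene by gene, with 3 RNA-seq libraries in each group out of 12 in the series. The groups are titled F1_5251OV, called the overexpression group here after its label, and F1_5NC, called 5NC. The mice of the overexpression group were adult male offspring of males whose testes had been injected with a lentivirus that was built on the LV5 vector and carried full-length lncRNA5251, a long noncoding RNA, and the 5NC mice were offspring of males given the LV5 vector without it. The other 6 libraries, 3 of 3NC (offspring of males given the LV3 vector) and 3 of the knockdown group, titled F1_5251KD (offspring of males given LV3 with short hairpin RNAs against lncRNA5251), served as references for which of the compared groups stood apart. This descent is the one the study gives, whereas the design text of the series speaks of virus in the F1 testes themselves. The strain is written IRC mouse in the labels and ICR, an outbred stock, in the study. The labels do not say that the libraries came from separate animals, nor how many fathers and litters stood behind a group, so that p-values measure only the spread between these libraries and a difference between litters cannot be told apart from one between groups. A gene entered the comparison with 10 or more estimated reads in at least 3 of the 6 libraries, which 15912 of the 20788 genes in the table reached and 4876 did not. A gene nearly silent in one group could pass this only through the other, and its direction was then fixed. In this way 51 tested genes passed only through 5NC and 32 only through the overexpression group. No row carried the name lncRNA5251, so its own level was not examined.

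The testis makes sperm in a fixed order, in which spermatogonia divide, spermatocytes pass through meiosis, and round spermatids elongate and pack their DNA with transition proteins and protamines. Sertoli cells enclose and feed the germ cells, peritubular myoid cells wrap the tubule, and Leydig cells between the tubules make testosterone. A whole-testis library adds up all of these cells, so the genes were described both by function and by the cell they are known from.

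The 6 libraries held 12719699 to 15771655 estimated reads, and the 12 libraries spanned the same range. The testis label was borne out by protamine 1, Prm1, at a mean of 11040 FPKM (fragments scaled to gene length and library size) in the overexpression group and 12090 in 5NC. The first principal component of the 6 libraries, with 40.9% of the variance, held the overexpression libraries on one side and the 5NC libraries on the other, with 5NC replicate 1 at -1.63, between 7.38 for overexpression replicate 3 and -26.03 for 5NC replicate 3. Among the references, 3NC replicate 2 and knockdown replicate 1 carried 93.9 and 70.7 CPM (counts scaled to library size) of Ptprc, the CD45 antigen of white blood cells, whereas the other 10 libraries carried 2.13 to 7. Neither of these belonged to the groups compared, but both entered the estimate of the spread.

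Between the overexpression group and 5NC 45 genes passed the test at an adjusted p of 0.05, 0.283% of those tested, in a quasi-likelihood fit over all 12 libraries. In the overexpression group 30 genes were higher (0.189%) and 15 were lower (0.0943%). With total counts in place of scaled library sizes the split was 41 higher and 32 lower, and on the FPKM of the authors it was 41 and 44. The number rested on single libraries. Leaving out replicate 1, 2 or 3 of 5NC left 36, 11 and 9 calls, and leaving out replicate 1, 2 or 3 of the overexpression group left 23, 14 and 27. Without 5NC replicate 1 the excess of higher genes turned, with 14 higher and 22 lower. Without 3NC replicate 2 and knockdown replicate 1, the reference libraries of high Ptprc, 178 passed, 111 higher and 67 lower (1.12%, 0.698% and 0.421% of those tested), with all 45 among them. A fit to only the 6 libraries compared called 110 (0.691%), 71 higher and 39 lower (0.446% and 0.245%), and DESeq2 over all 12 libraries called 314 (1.97%), 215 higher and 99 lower (1.35% and 0.622%). Before adjustment 1854 genes (11.7%) had a p under 0.05, 1132 higher and 722 lower, and the median log2 fold change over all tested genes was -0.01.

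Against the reference libraries, most of the called genes stood apart in the control group. In 34 of the 45 genes all 3 libraries of 5NC lay outside the range of the other 9 libraries, against 5.66% of all tested genes. In 12 of the 45 it was the overexpression libraries that lay outside the other 9, against 0.773% of all tested genes. Of these, 3 genes were in both counts and 2 were in neither. The libraries of the overexpression group and 5NC did not overlap in any of the 45, which was also the case in 21.4% of all tested genes. In the same fit 111 genes (0.698%) differed between 5NC and the mean of 3NC and the knockdown group, and 4 genes (0.0251%) between the overexpression group and that mean. Both of these comparisons share libraries with the one between the overexpression group and 5NC, so their values are given side by side below and not as separate evidence. The 111 fell strongly without 5NC replicate 2 or 3 and rose without the reference libraries of high Ptprc, as given under processing below.

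**Figure D1:**
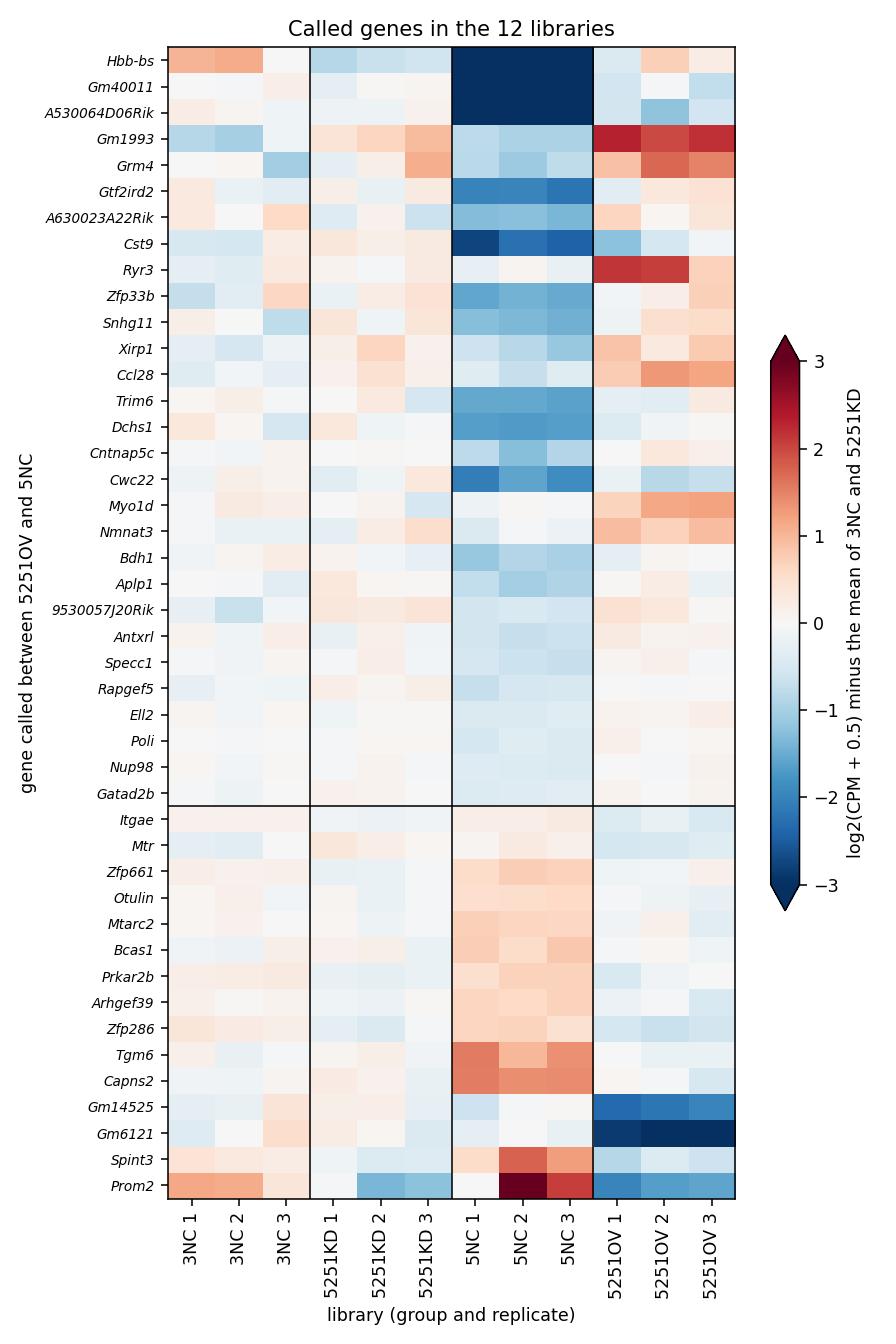
Heat map of 44 of the 45 genes called between the overexpression group and 5NC (rows, ordered by log2 fold change) in the 12 libraries (columns). Color is log2(CPM + 0.5) minus the mean of the 6 libraries of 3NC and the knockdown group for that gene, drawn from -3 to 3. The horizontal line separates the 29 genes higher in the overexpression group from the 15 lower. In 33 rows the 3 columns of 5NC lie outside the other 9, and in 12 rows those of the overexpression group do.

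Among the genes for which the overexpression group lay outside the other 9 libraries, 3 were near-identical copies on the X chromosome. Gm1993, Gm6121 and Gm14525 lie close to Slx, the founding name of a family of X-linked genes with many copies that are read in spermatids and are known as opponents of the Sly genes of the Y chromosome. Their coding sequences were 639 bases long in the GENCODE annotation of GRCm38. Gm6121 and Gm14525 were 99.5% identical, with 3 differing bases. Gm1993 was 98.1% identical to Gm6121 and 98.3% to Gm14525, and the copies were 98.6%, 98.4% and 98% identical to Slx for Gm6121, Gm14525 and Gm1993. The stretch of coding bases 475 to 564 is shown because it holds 4 of the 13 positions at which the copies differ from one another, marked by capitals, and shows how few bases a read has to tell them apart.
Gm1993 (chrX:25548296-25570452, minus strand): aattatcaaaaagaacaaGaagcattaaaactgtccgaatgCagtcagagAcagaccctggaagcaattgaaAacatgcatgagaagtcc
Gm6121 (chrX:26912743-26935697, minus strand): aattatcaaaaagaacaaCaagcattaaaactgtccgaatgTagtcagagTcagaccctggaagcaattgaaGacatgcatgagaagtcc
Gm14525 (chrX:26672777-26702638, minus strand): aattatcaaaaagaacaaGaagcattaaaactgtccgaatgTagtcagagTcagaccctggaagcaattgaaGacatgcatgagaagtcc

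Gm1993 stood at 16.6, 13 and 15.2 CPM in the overexpression libraries and at 1.5, 1.26 and 1.28 CPM in the 5NC libraries. All 3 libraries of the overexpression group exceeded the other 9, in which the knockdown group (3.99, 4.84 and 6.13 CPM) also lay above 3NC (1.39, 1.23 and 2.65 CPM). The log2 fold change between the overexpression group and 5NC was 3.46 ± 0.29 (SE, n = 3 libraries a group), 11-fold, with an adjusted p of 0.000466, and between the overexpression group and the mean of 3NC and the knockdown group it was 2.34 (adjusted p = 0.00173).

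The other 2 copies went the opposite way. Gm6121 stood at 1.79, 1.27 and 1.19 CPM in the overexpression group against 13.4, 16.2 and 13.8 CPM in 5NC, while the 6 reference libraries ran from 11.8 to 23.5 CPM. It fell 10.1-fold (log2 fold change -3.34 ± 0.29, adjusted p = 0.000466), and against 3NC and the knockdown group by 3.54 on the log2 scale (adjusted p = 0.000452). Gm14525 stood at 2.91, 3.33 and 3.88 CPM in the overexpression group against 10.7, 16.4 and 17.2 CPM in 5NC, and fell 4.37-fold (log2 fold change -2.13 ± 0.25, adjusted p = 0.00455). The overexpression libraries were the lowest of the 12 for both copies, whereas those of 5NC lay among the references except for Gm14525 in 5NC replicate 1. Slx itself was at 0.0662, 0.200 and 0.396 CPM in the overexpression group and at 0.997 to 1.06 CPM in 5NC, a log2 fold change of -2.24 that did not pass the test (adjusted p = 0.124), and it was named after its values had been seen. Slx passed the filter on reads only through 5NC, so that it had to be lower. The 3 copies together came to 17.6 to 21.3 CPM in the overexpression group, 25.6 to 33.8 CPM in 5NC and 27.5 to 48.1 CPM in the references. Because the copies share most of their sequence, how the authors' counting split the reads between them is uncertain, and the level of each one is less sure than that of their sum.

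Ccl28 and Zfp286 were the remaining genes that set the overexpression group apart and passed with every one of the 6 libraries left out in turn. Ccl28 (chr13:119623819-119654359) encodes a chemokine of mucosal epithelia. Its level was 9.87, 14.5 and 13.3 CPM in the overexpression group against 4.25, 3.30 and 4.27 CPM in 5NC, and the references reached 7.94 CPM at most. It rose 3.18-fold over 5NC (log2 fold change 1.67 ± 0.20, adjusted p = 0.00455) and by a log2 fold change of 1.15 over 3NC and the knockdown group (adjusted p = 0.0489). Zfp286 (chr11:62751951-62789506), a zinc finger gene, was at 6.62, 5.94 and 6.57 CPM in the overexpression group and at 15.5, 15.8 and 13.5 CPM in 5NC. Here both groups lay outside the references, the overexpression group below their range of 7.13 to 12.6 CPM and 5NC above it, and the fall was 2.34-fold (log2 fold change -1.23 ± 0.14, adjusted p = 0.00384).

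For the 4 other genes with calls that held without any 1 library, 5NC lay below the other 9 libraries. Gm40011 (chr2:173082780-173138200), a predicted protein-coding gene without a known role, had 96, 140 and 71 reads in the overexpression libraries and 1, 4 and 3 reads in the 5NC libraries. It thus passed the filter on reads only through the overexpression group, so that 5NC had to be lower. In 3NC it had 147, 153 and 165 reads, and in the knockdown group 129, 149 and 151. The 5NC libraries were thus the only ones of the 12 under 71 reads, and the log2 fold change was 5.23 ± 0.36 (adjusted p = 0.000127), the smallest p of all genes. Against 3NC and the knockdown group the log2 fold change was -5.69 for 5NC (adjusted p = 3.08e-05) and -0.46 for the overexpression group (adjusted p = 0.9999).

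A530064D06Rik (chr17:48151896-48167257), also listed as Trem4 and pdctrem, encodes a receptor of the Trem family found on plasmacytoid dendritic cells. It had 49, 28 and 40 reads in the overexpression group against 2, 1 and 0 in 5NC, and 65 to 89 in the references. The gene too passed the filter on reads only through the overexpression group. All 3 libraries of 5NC lay below the other 9, and those of the overexpression group lay between 5NC and the references. The 3 reads of 5NC against 117 in the overexpression group, scaled by library size, gave a ratio of 40.4 with a 95% interval of 13.5 to 198.8 for counting error only, and the gene passed at an adjusted p of 0.000619.

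Gtf2ird2 (chr5:134182557-134218146), a member of the TFII-I family of transcription factors, stood at 14.8, 23.6 and 25.7 CPM in the overexpression group and at 4.31, 4.36 and 3.70 CPM in 5NC. The references ran from 14.9 to 23.3 CPM, with overexpression replicate 1 just below that range, replicates 2 and 3 above it and all of 5NC far below it. It was 5.17-fold higher in the overexpression group (log2 fold change 2.37 ± 0.24, adjusted p = 0.00176), with -2.21 for 5NC and 0.16 for the overexpression group against the references.

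Hbb-bs, one of the adult β-globin genes, had 67, 156 and 92 reads in the overexpression group and 0, 0 and 1 in 5NC, with 89 to 227 in 3NC and 51 to 57 in the knockdown group. Its call (adjusted p = 0.000466) rested on that near absence from 5NC, and it passed the filter on reads only through the overexpression group. The single read of 5NC against 315 in the overexpression group gave a ratio of 326.4, with a 95% interval from 58.2 upward for counting error only. Mice carry adult β-globin in haplotypes, of which one holds Hbb-bs and Hbb-bt and another holds Hbb-b1 and Hbb-b2, and all of these have rows in the table. Hbb-bs and Hbb-bt differ at 1 of 444 coding bases in GRCm38, shown by the capital in the last 90 of them.
Hbb-bs (chr7:103826534-103828096, minus strand): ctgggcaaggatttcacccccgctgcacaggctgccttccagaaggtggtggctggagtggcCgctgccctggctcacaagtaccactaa
Hbb-bt (chr7:103812524-103813996, minus strand): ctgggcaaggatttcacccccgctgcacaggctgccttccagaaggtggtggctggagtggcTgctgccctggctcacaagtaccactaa

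The partners of Hbb-bs were looked at after its values were known. Hbb-bt had 10, 23 and 28 reads in the overexpression group and 0, 1 and 0 in 5NC, and missed the threshold (adjusted p = 0.0538). Hbb-b1 had 548, 192 and 72 reads in the overexpression group and 346, 498 and 359 in 5NC, with overlapping libraries (log2 fold change -0.58 ± 0.54, adjusted p = 0.745). Hbb-b2 likewise overlapped, with 135, 35 and 7 reads against 63, 115 and 79. In 5NC the reads of adult β-globin were thus almost all on the Hbb-b1 and Hbb-b2 rows, and in every library of the other 3 groups they were spread over both pairs. The summed level of the 4 rows overlapped, at 50.3, 27.1 and 15.8 CPM in the overexpression group and 25.6, 43.2 and 31.3 CPM in 5NC.

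**Figure D2:**
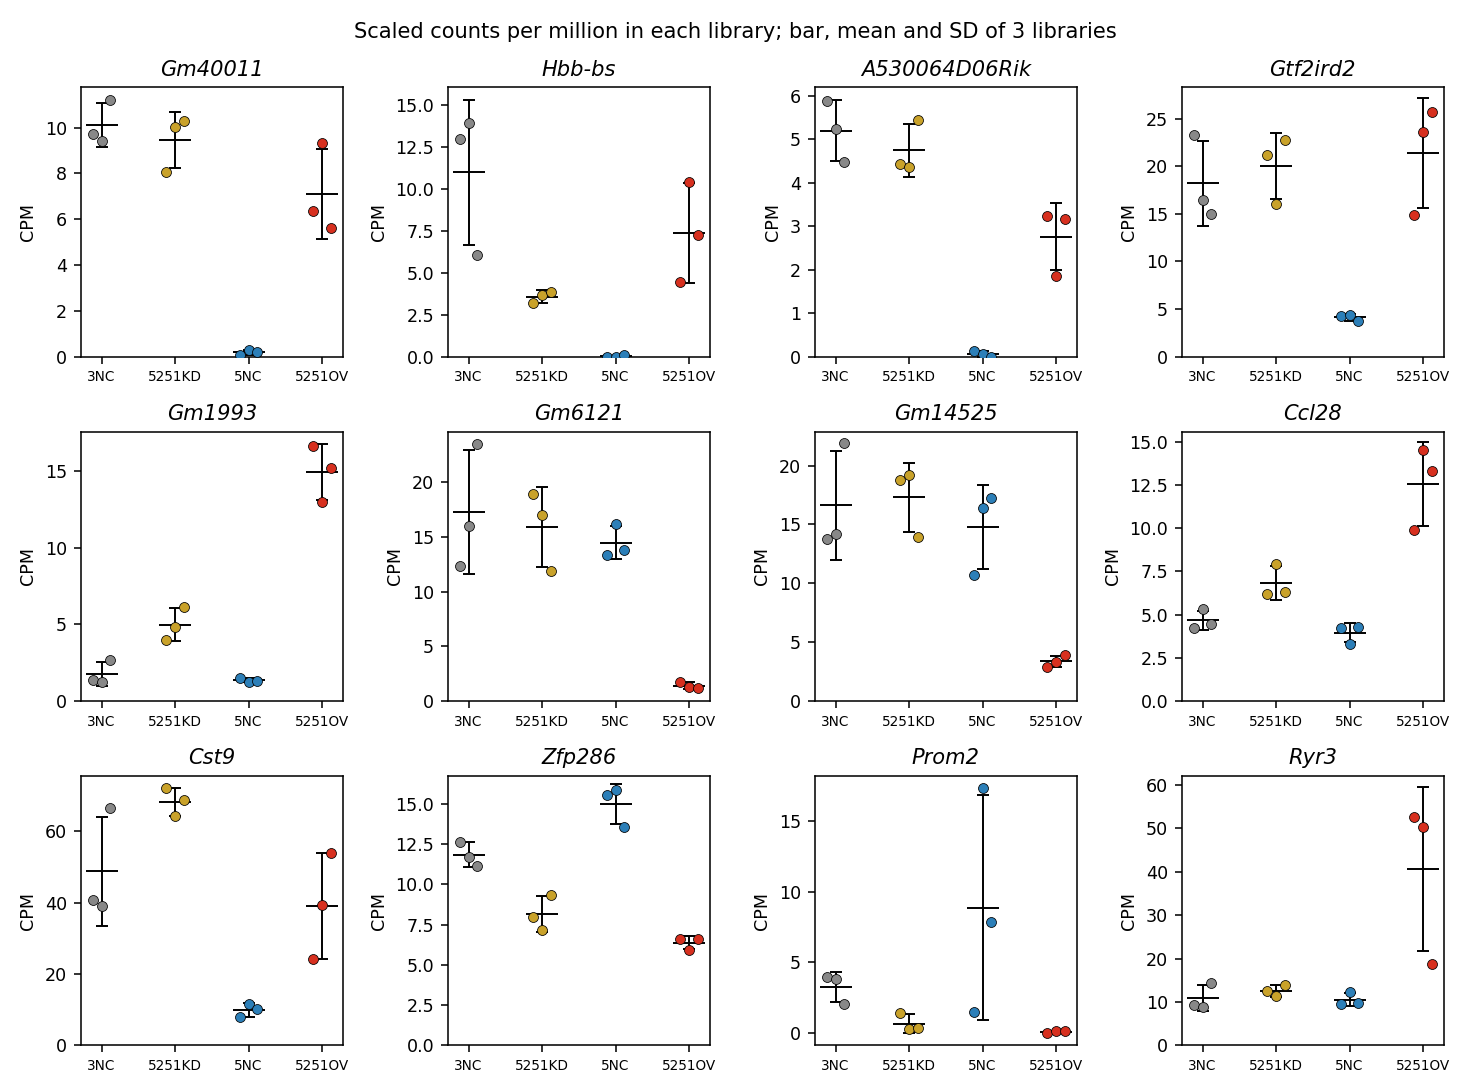
CPM of 12 called genes in each library. Each point is 1 library, and the bar gives the mean and SD of the 3 libraries of a group. Gm40011, Hbb-bs, A530064D06Rik, Gtf2ird2 and Cst9 are lowest in 5NC, whereas Gm1993, Ccl28 and Ryr3 are highest and Gm6121 and Gm14525 lowest in the overexpression group. Zfp286 is highest in 5NC and lowest in the overexpression group, and the Prom2 points of 5NC are spread from 1.5 to 17.3 CPM.

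The remaining 36 called genes each lost the call when at least 1 of the 6 libraries was left out, and are described with that limit. They are ordered by known role for reading, with no fixed list or test behind the order. Dchs1, a giant protocadherin that binds Fat4 in planar cell polarity, was at 13.5, 16.5 and 18.3 CPM in the overexpression group and at 5.37, 5.20 and 5.34 CPM in 5NC. The references ran from 12.6 to 22.4 CPM, and the difference from 5NC was 3.03-fold (log2 fold change 1.60 ± 0.21, adjusted p = 0.0123). Antxrl, an anthrax toxin receptor-like gene, stood at 168.6, 151.4 and 153.7 CPM against 95.2, 86.7 and 89.9 CPM in 5NC and 120.9 to 161.1 CPM in the references (log2 fold change 0.80 ± 0.11, adjusted p = 0.0164). A630023A22Rik overlaps Antxrl on chromosome 14 and moved with it, by 4.23-fold (adjusted p = 0.0167), and reads of overlapping genes cannot be told apart here since the strand of the library is not given. Cntnap5c, of the contactin-associated family, and Aplp1, a relative of the amyloid precursor protein, were 2.49-fold and 1.94-fold higher, again with 5NC below the other 9 libraries.

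Cst9, or testatin, a cystatin-like gene of Sertoli cells, had a mean of 70.5 FPKM in the overexpression group and 18.7 FPKM in 5NC. Its CPM values were 24.1, 39.4 and 53.9 in the overexpression group, 8, 11.7 and 10.2 in 5NC and 39.0 to 72.0 in the references. All 3 libraries of 5NC lay below the other 9, and overexpression replicate 1 was below every reference library. The log2 fold change was 1.97 ± 0.29 (adjusted p = 0.0187), with -2.53 for 5NC and -0.56 for the overexpression group against the references.

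Cwc22, a splicing factor that recruits the exon junction complex, was at 63.3, 40.9 and 45.4 CPM in the overexpression group, 17.1, 24.3 and 19.9 CPM in 5NC and 59.0 to 92.0 CPM in the references (log2 fold change 1.29 ± 0.21, adjusted p = 0.0278). Both groups therefore had libraries below the reference range, 5NC all of them and overexpression replicates 2 and 3. Ell2, an elongation factor of RNA polymerase II, was 1.45-fold higher with 140.3, 138.9 and 150.0 CPM against 97.2, 96.9 and 102.0 CPM in 5NC. Nup98, a nucleoporin, was 1.37-fold higher, and Gatad2b, a subunit of the NuRD complex, 1.36-fold. Trim6, an E3 ubiquitin ligase, and Zfp33b, a zinc finger gene, were 3.04-fold and 3.75-fold higher. Poli, a translesion DNA polymerase, was 1.44-fold higher. The 5NC libraries were the lowest of the 12 for all of these, and those of the overexpression group lay within the reference range for Trim6 and Gatad2b and passed above it in 1 or more libraries for Ell2, Nup98, Zfp33b and Poli.

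Ryr3, a calcium release channel, was at 52.5, 50.3 and 18.9 CPM in the overexpression group and at 9.62, 12.2 and 9.76 CPM in 5NC, with 8.87 to 14.3 CPM in the references. The 3 libraries of the overexpression group were the highest of the 12, but replicate 3 was far below the other 2 (log2 fold change 1.95 ± 0.33, adjusted p = 0.0364), and the adjusted p was 0.00256 without it. The call was lost without any other of the 6 libraries (adjusted p up to 0.214), with only the 6 libraries compared, with the replicate block and on FPKM. Grm4, a glutamate receptor, was at 3.98, 7.47 and 6.34 CPM against 0.875, 0.633 and 0.926 CPM, and one library of the knockdown group reached 4.63 CPM, so that neither group was outside the rest. Myo1d, an unconventional myosin, was highest of the 12 in the overexpression libraries, at 16.8, 23.9 and 24.6 CPM against 9.31 to 10.7 CPM in 5NC (2.16-fold, adjusted p = 0.0468). Xirp1, an actin-binding protein of muscle, was 3.28-fold and Rapgef5, an exchange factor for Rap, 1.47-fold higher, both with 5NC lowest.

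Nmnat3, which makes NAD in mitochondria, was at 80.0, 68.0 and 79.0 CPM in the overexpression group, above the other 9 libraries, and at 30.8, 40.2 and 37.0 CPM in 5NC, within the reference range of 33.7 to 60.4 CPM at replicates 2 and 3 (2.10-fold, adjusted p = 0.0364). Bdh1, the ketone body enzyme of mitochondria, was 1.97-fold higher with 5NC lowest. Snhg11, the host of small nucleolar RNAs, was 3.54-fold higher and Specc1, a cytospin, 1.61-fold, both with 5NC lowest. The testis transcript 9530057J20Rik was 1.75-fold higher, at 618.0 to 840.5 CPM in the overexpression group, 410.7 to 440.5 CPM in 5NC, 383.3 to 570.8 CPM in 3NC and 730.8 to 800.0 CPM in the knockdown group, so that neither group lay outside all the others.

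Of the 15 genes lower in the overexpression group, Capns2, a calpain small subunit, and Tgm6, a transglutaminase, had 5NC above the other 9 libraries. Capns2 was at 1.26, 1.13 and 0.713 CPM in the overexpression group, 4.37, 3.94 and 3.99 CPM in 5NC and 0.954 to 1.5 CPM in the references (log2 fold change -1.97 ± 0.26, adjusted p = 0.0111). Tgm6 was at 1.46, 1.20 and 1.19 CPM against 5.25, 3.37 and 4.56 CPM (log2 fold change -1.77 ± 0.24, adjusted p = 0.0131). The same side was seen for Mtarc2, a molybdenum enzyme of mitochondria (26.1 to 36.4 CPM in the overexpression group and 50.3 to 53.6 CPM in 5NC), Bcas1 (21.8 to 24.7 CPM and 35.1 to 42.0 CPM), Arhgef39, a guanine nucleotide exchange factor (1.88-fold lower), Prkar2b, a regulatory subunit of protein kinase A (1.78-fold), Otulin, which removes linear ubiquitin chains (1.64-fold), and Zfp661 (1.63-fold).

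Mtr, methionine synthase, differed on the other side, with 28.8, 29.7 and 32.5 CPM in the overexpression group, the lowest of the 12 libraries, against 44.3, 50.8 and 46.9 CPM in 5NC and 33.3 to 53.2 CPM in the references (log2 fold change -0.64 ± 0.12, adjusted p = 0.0498). Itgae, the αE integrin known from epithelial T cells, was at 46.0, 52.2 and 44.8 CPM in the overexpression group and 70.5, 70.1 and 73.3 CPM in 5NC (log2 fold change -0.58 ± 0.08, adjusted p = 0.0123). Both groups lay outside the other 6 libraries, at 54.4 to 67.0 CPM, and the order was 5NC, 3NC, the knockdown group, the overexpression group. Ptprc, in contrast, overlapped between the groups, at 2.80 to 3.41 CPM in the overexpression group and 2.13 to 3.30 CPM in 5NC.

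**Figure D3:**
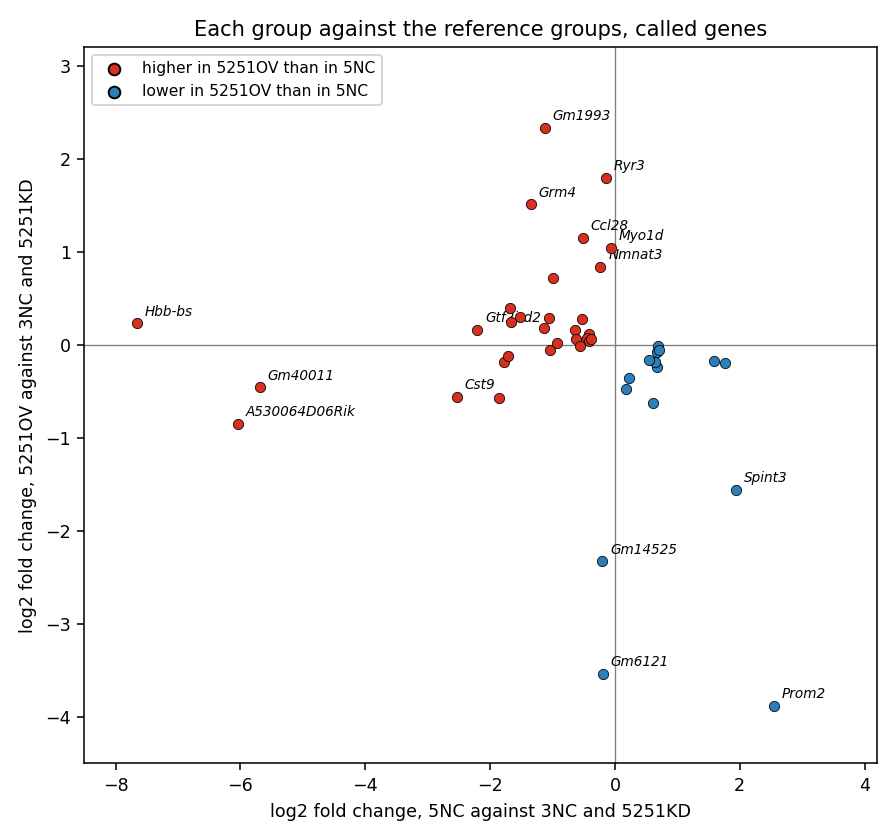
Log2 fold change against the mean of 3NC and the knockdown group for each of the 45 called genes, with 5NC on the horizontal and the overexpression group on the vertical axis. Red points are genes higher and blue points genes lower in the overexpression group than in 5NC. Most points lie along the horizontal axis, where 5NC is farther from the references than the overexpression group is, while Gm1993, Gm6121, Gm14525, Ccl28 and Ryr3 lie along the vertical one. For Hbb-bs and A530064D06Rik, with 0 to 2 reads a library in 5NC, the horizontal position depends on how the fit treats counts near 0.

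When the genes were taken by germ cell stage, no member of the spermatid lists passed the test, but most members were on one side. In the lists a call is one of the fit over all 12 libraries, unless another fit or DESeq2 is named. In whole testis, fewer cells of a type and less RNA per cell cannot be told apart. Of 30 round spermatid genes, 27 had a log2 fold change above 0, against 48.9% of all tested genes, with a median of 0.24 against -0.01 over all genes, and 11 had an unadjusted p under 0.05, all of them higher, where 11.7% of all tested genes had one in either direction. DESeq2 called 2 of them, Catsper3 and Sun5, both higher, against 1.35% of all tested genes. Catsper3, a pore subunit of the sperm calcium channel and the member with the smallest p, was at 74.9, 70.4 and 72.1 CPM in the overexpression group and at 46.0, 57.1 and 51.5 CPM in 5NC (adjusted p = 0.171). Pgam2, a glycolytic enzyme and the member with the highest FPKM, overlapped between the groups (log2 fold change 0.15 ± 0.23). The summed level of the list was 7340, 7159 and 6388 CPM in the overexpression group and 6479, 5861 and 6069 CPM in 5NC, so the groups overlapped by 1 library. Against the references the median was -0.24 for 5NC and 0.02 for the overexpression group.

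Of the 27 genes of elongating spermatids 24 were above 0, with a median of 0.17 and no call. At an unadjusted p under 0.05 were 4, near the 11.7% of all tested genes. Their summed level overlapped, at 33360, 34590 and 29880 CPM in the overexpression group and 32010, 27410 and 28680 CPM in 5NC. Spata18, a mitochondrial quality control gene, was at 649.4, 665.3 and 592.3 CPM against 485.1, 419.1 and 450.4 CPM (adjusted p = 0.105, called by DESeq2), whereas Prm1, the most abundant member, had a log2 fold change of -0.07 ± 0.14. Of 42 genes of the acrosome and egg binding 31 were above 0, with a median of 0.18, 12 at an unadjusted p under 0.05 and no call. DESeq2 called 3 of them (Tmem95, Dcst1 and Adam1a), all higher, against 1.35% of all tested genes. The genes of the flagellum (48 tested, median 0.09, 7 at an unadjusted p under 0.05), of sperm ion channels and motility signaling (24 tested, median 0.06, 4), and the germ-cell isozymes of energy metabolism (24 tested, median 0.14, 4) also held no call. The median of the ion channel genes did not keep its sign, at -0.0074 without overexpression replicate 1 and -0.03 on FPKM. DESeq2 called 1 of the flagellum genes (Dnah3), 3 of the ion channel genes (Catsper3, Kcnu1 and Tmem95) and 1 isozyme (Acsbg2), all higher, beside 1.35% of all tested genes. The protamines, transition proteins and testis histones had a median of 0.03 over 13 genes, with 1 at an unadjusted p under 0.05, Chd5, and no call by either tool.

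The lists of earlier germ cells had medians near or below 0. Of 18 spermatogonial genes 14 were below 0, with a median of -0.17 and 4 at an unadjusted p under 0.05, 3 of them lower. Their summed level was 802.6, 802.4 and 756.7 CPM in the overexpression group and 925.5, 833.4 and 851.6 CPM in 5NC, which did not overlap, but the references ran from 658.6 to 870.7 CPM. Esx1, an X-linked homeobox gene with the smallest p of the list, went the other way, at 26.8, 24.7 and 15 CPM against 9.81, 7.59 and 7.83 CPM (adjusted p = 0.0621, called by DESeq2). Among 31 spermatocyte genes the median was 0.06 with 18 above 0, and Spo11, which cuts DNA to start meiotic recombination, was at 44.6, 39.2 and 46.3 CPM in the overexpression group and 56.9, 62.2 and 65.7 CPM in 5NC (adjusted p = 0.0517, called by DESeq2 and in edgeR with RLE size factors or total counts). The 5NC libraries were the highest of the 12 for Spo11. The 40 genes of synapsis and recombination (median -0.01) and 26 of the piRNA pathway, which silences transposons in germ cells (median 0.06), held no call, with 7 and 1 at an unadjusted p under 0.05, and DESeq2 called only Spo11 in the first and none in the second.

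**Figure D4:**
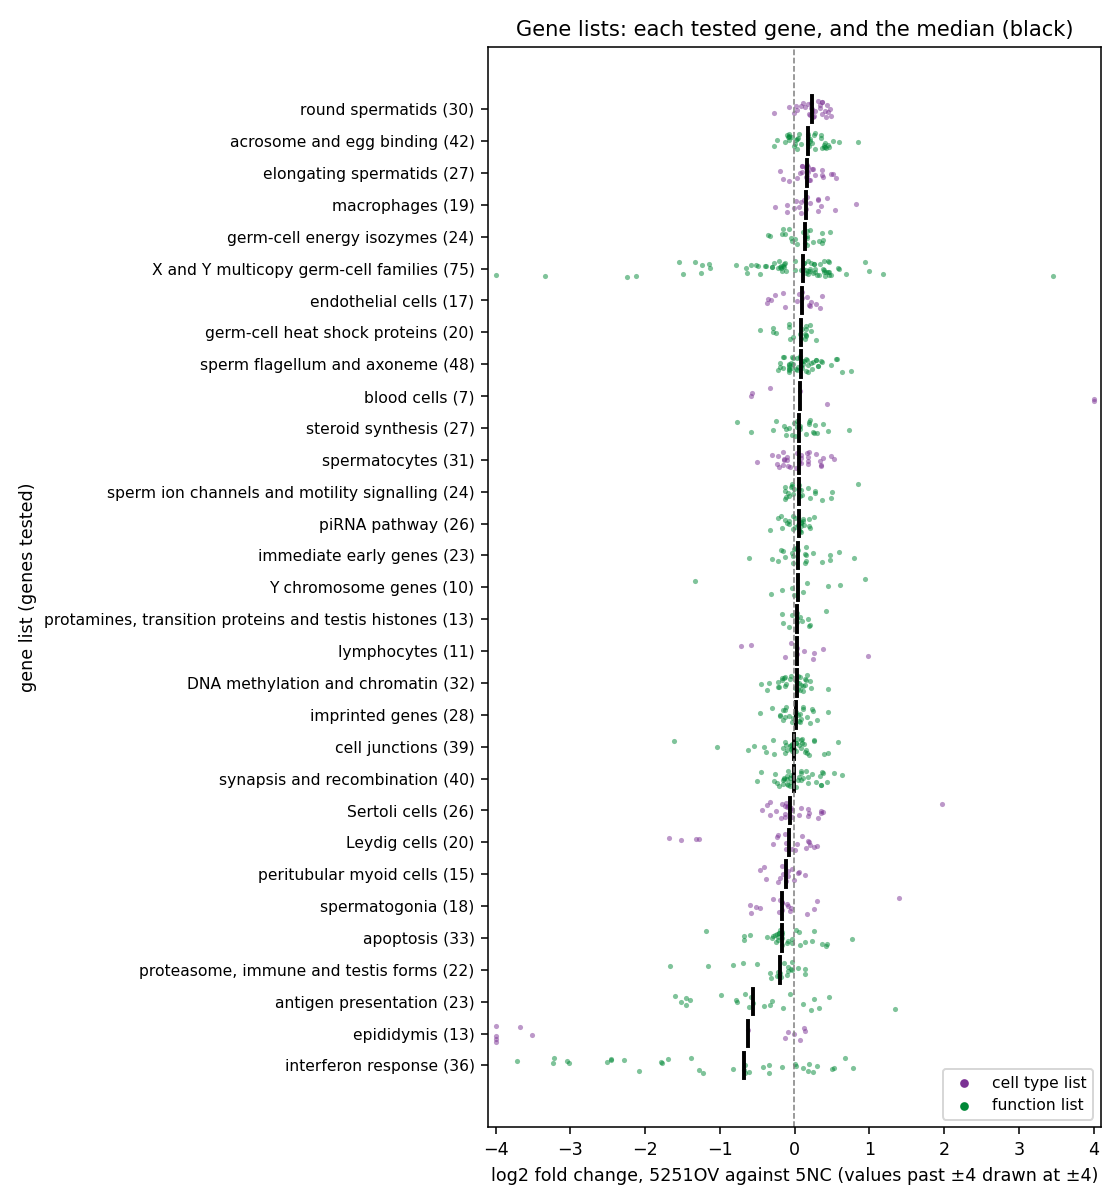
Log2 fold change between the overexpression group and 5NC of each tested gene in 31 lists, ordered by the list's median (black bar), with the number of genes tested in parentheses. Purple points are cell type lists and green points function lists, and the dashed line is the median of all tested genes, -0.01. Spermatid and acrosome lists have the highest medians, and the interferon response, epididymis and antigen presentation lists the lowest.

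For some genes the study also measured the protein. These 7 genes did not pass the test in edgeR or DESeq2, and 1 of them, Odf1, had an unadjusted p under 0.05. Ddx4, the germ cell helicase, had a log2 fold change of -0.01 ± 0.12, Sycp3 of the synaptonemal complex -0.20 ± 0.14, Tnp1, transition protein 1, -0.16 ± 0.16, and Pgk2, the glycolytic kinase of spermatids, 0.17 ± 0.13. Cadm2, a cell adhesion molecule, had -0.29 ± 0.19, and Gdnf, the niche factor of spermatogonial stem cells, -0.32 ± 0.28 at 1.06 to 1.94 CPM in the 6 libraries. Odf1, of the outer dense fibers of the sperm tail, had the largest value, 0.56 ± 0.20 (adjusted p = 0.299), with 1433, 1378 and 981.6 CPM in the overexpression group and 1043, 728.7 and 809.0 CPM in 5NC. These overlap at overexpression replicate 3 and 5NC replicate 1. Cell junction genes had a median of -0.0045 over 39 tested genes, 19 above and 20 below 0, with 6 at an unadjusted p under 0.05 (2 higher, 4 lower) and no call by edgeR or DESeq2. Among them Icam2 passed the filter on reads only through 5NC, so that it had to be lower.

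Of the somatic cells, Sertoli cell genes had a median of -0.07 over 26 genes, and Cst9, described above, was the only call, against 0.283% of all tested genes. Clu, the most abundant of them in FPKM, was at 688.1, 709.6 and 513.5 CPM in the overexpression group and 645.6, 515.2 and 505.6 CPM in 5NC. Leydig cell genes had a median of -0.07 over 20 genes with no call over the 12 libraries or by DESeq2. At an unadjusted p under 0.05 were 3, all lower, where 11.7% of all tested genes had one in either direction. The fit to only the 6 libraries compared called Klk1b21 and Klk1b24, both lower, against 0.245% of all genes, and the median ran from -0.22 to 0.12 with 1 library left out. Klk1b21, a kallikrein of Leydig cells and the smallest p of that list, was at 9.54, 16.3 and 20.6 CPM in the overexpression group and 44.1, 46.0 and 43.3 CPM in 5NC (log2 fold change -1.53 ± 0.57, adjusted p = 0.335). The groups did not overlap, but 3NC was split between 43.9, 38 and 4.75 CPM and the knockdown group was at 1.75 to 3.62 CPM. Insl3, the Leydig cell hormone of testis descent, had a log2 fold change of 0.21 ± 0.17. Peritubular myoid, endothelial and macrophage genes had medians of -0.12, 0.09 and 0.15 over 15, 17 and 19 genes, with no call by either tool. With 1 library left out these medians ran from -0.16 to -0.02, -0.02 to 0.16 and 0.07 to 0.21. At an unadjusted p under 0.05 were 0, 0 and 1 of them, against 11.7% of all tested genes. Steroid synthesis genes had a median of 0.06 over 27, from -0.01 to 0.14 with 1 library left out. They held no call and 5 at an unadjusted p under 0.05. DESeq2 called Cyp51 of them, higher, against 1.35% of all tested genes.

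Genes of the interferon response had the lowest median of the 31 lists, -0.67 over 36 genes, with 25 below 0, 2 at an unadjusted p under 0.05 and no call in the fit over all 12 libraries or by DESeq2. Calls depended on the reference libraries in the fit. With only the 6 libraries compared 6 genes passed, all lower (Irf1, Gbp2, Gbp4, Igtp, Iigp1 and Irgm2), against 0.245% of all genes. Without the 2 libraries of high Ptprc 8 passed, all lower, against 0.421%. Of these 8, Cxcl10 passed the filter on reads only through 5NC, so that it had to be lower. With a surrogate variable, a covariate estimated from the counts, 5 passed, all lower. In that fit 187 of all genes (1.18%) were called, 122 higher and 65 lower (0.767% and 0.408%). The libraries of 5NC, 3NC and the knockdown group differed widely among themselves. The summed level was 156.6, 166.9 and 199.0 CPM in the overexpression group and 259.7, 769.3 and 468.1 CPM in 5NC, which did not overlap, but in 3NC it was 159.5, 1965 and 123.1 CPM and in the knockdown group 1444, 174.0 and 318.9 CPM. The highest of these, 3NC replicate 2 and knockdown replicate 1, were the libraries of high Ptprc, whereas 5NC replicate 2 reached 769.3 CPM with Ptprc at 3.30 CPM. Iigp1, an interferon-induced GTPase with the smallest p, was at 6.49, 6.54 and 9.98 CPM in the overexpression group and 37.0, 172.1 and 91.0 CPM in 5NC (log2 fold change -3.71 ± 1.37, adjusted p = 0.327). The median of the list ran from -0.94 to -0.44 with 1 library left out, the latter without 5NC replicate 2. Antigen presentation genes likewise had a median of -0.55 over 23 genes, -0.20 without 5NC replicate 2, with no call over the 12 libraries or by DESeq2 and none at an unadjusted p under 0.05. Among them H2-T24 passed the filter on reads only through 5NC, so that it had to be lower. The calls of other fits went against the median of the list. H2-D1, a class I antigen-presenting molecule, was called higher with only the 6 libraries compared, and H2-D1 and H2-Q4 with a surrogate variable, while H2-D1 had a log2 fold change of 1.34 ± 0.81 over the 12 libraries (adjusted p = 0.561). The summed levels of the list overlapped, with the overexpression group the higher on average, at 404.9 to 580.7 CPM in the overexpression group and 343.3 to 492.3 CPM in 5NC. Of 22 proteasome genes 19 were below 0, with a median of -0.19, 2 at an unadjusted p under 0.05 and no call by either tool.

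Genes of the epididymis, the duct beside the testis in which sperm mature, were taken as markers of neighboring tissue. Of 30 such genes 13 had enough reads, with a median of -0.62, 7 at an unadjusted p under 0.05, all lower, against 11.7% of all genes, and 2 calls, Spint3 and Prom2, against 0.283%. Of the 13, Adam7, Crisp1, Prom2 and Spint3 reached 10 reads in no overexpression library and passed the filter on reads only through 5NC, so that they had to be lower and nothing is read from the median or these counts. The median ran from -0.90 to -0.35 with 1 library left out and was -0.17 on FPKM. DESeq2 called Crisp1, Adam7, Spink8 and Prom2, all lower, against 0.622% of all genes, and did not call Spint3. In edgeR Crisp1 and Spint3 were called lower with only the 6 libraries compared (0.245% of all genes), and Crisp1, Adam7, Spink8, Spint3 and Prom2 without the 2 libraries of high Ptprc (0.421%) and with a surrogate variable (0.408%). Except for Spink8, all of these genes had passed the filter on reads only through 5NC, so nothing is read from these counts either. Neither Spint3 nor Prom2 was called in edgeR without 5NC replicate 2 or 3, or without any of the 3 overexpression libraries. Spint3, a Kunitz-type protease inhibitor, was at 0.0662, 0.267 and 0.158 CPM in the overexpression group and at 1, 2.95 and 1.92 CPM in 5NC (adjusted p = 0.0187). Prom2, prominin 2 of epithelial membranes, was at 0, 0.133 and 0.158 CPM in the overexpression group and at 1.5, 17.3 and 7.83 CPM in 5NC (adjusted p = 0.0364). Within 5NC both genes were highest in replicate 2 and lowest in replicate 1, and so was Crisp1, a sperm-coating protein named after its values were seen, which stood at 0.199, 0.133 and 0.0792 CPM against 9.87, 239.0 and 97.9 CPM (adjusted p = 0.0621). In 3NC Crisp1 was at 26.4 to 61.0 CPM and in the knockdown group at 0.0673 to 13 CPM. The summed level of the 13 genes was 288.4 to 319.4 CPM in the overexpression group, 325.1, 649.8 and 432.6 CPM in 5NC and 292.3 to 634.5 CPM in the references. Of this sum 133.9 to 162.2 CPM in the 6 libraries was Cst8, which testis also expresses. The epididymis genes Gpx5 and Lcn5 had at most 0.0792 CPM in them. The part of such RNA in the other called genes was not tested.

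**Figure D5:**
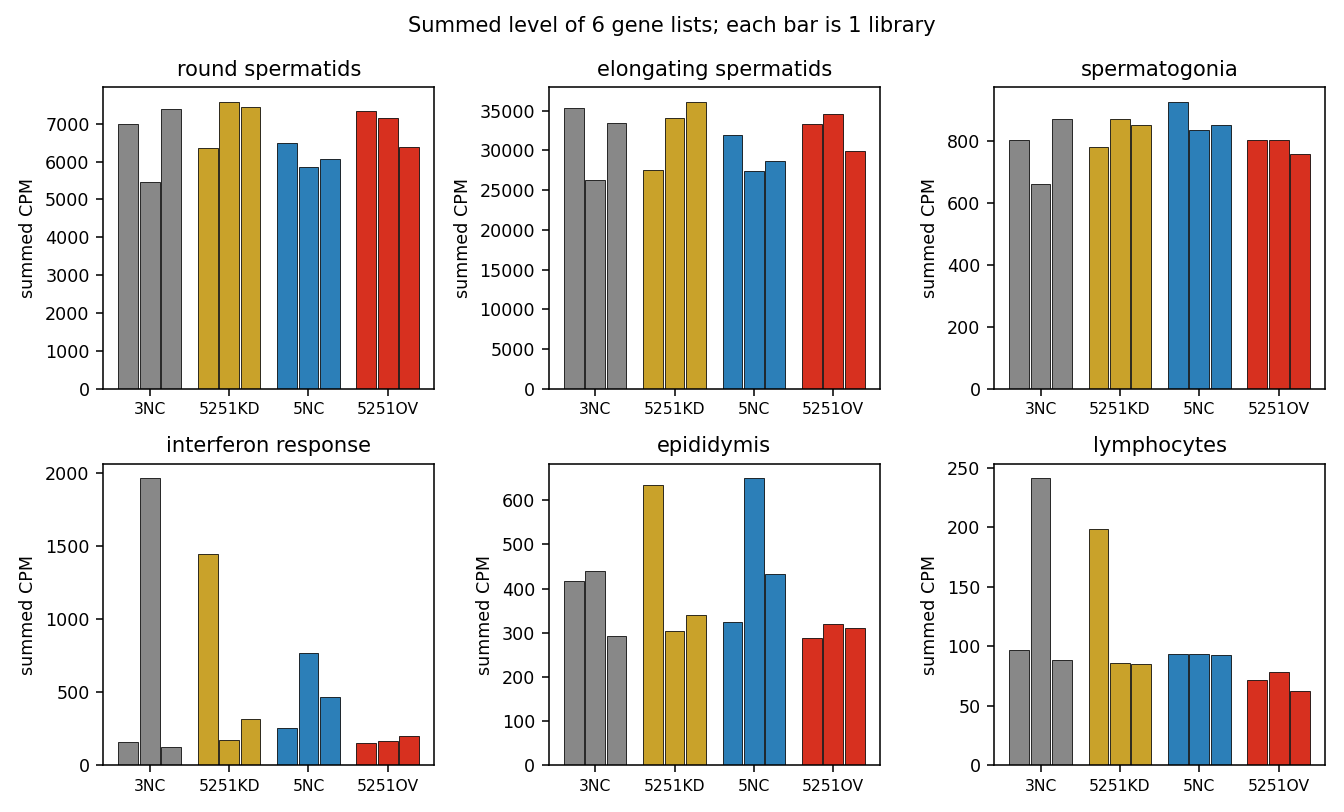
Summed CPM of 6 gene lists, with 1 bar for each library in replicate order within a group. The round spermatid sums overlap between the overexpression group (6388 to 7340) and 5NC (5861 to 6479). In the interferon, epididymis and lymphocyte panels the tallest bars are single libraries, 3NC replicate 2, knockdown replicate 1 and, for the epididymis, 5NC replicate 2.

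Lymphocyte genes, of which 11 were tested, held only the call of Itgae, and the 7 tested blood cell genes only that of Hbb-bs, against 0.283% of all tested genes. DESeq2 also called Hbb-bt, higher, against 1.35% of all tested genes. Hbb-bs and Hbb-bt passed the filter only through the overexpression group, so that they had to be higher. Hba-a1, an α-globin gene, overlapped at 77.7, 39.2 and 19.2 CPM in the overexpression group and 36.6, 35.4 and 28.9 CPM in 5NC. Of 75 tested genes of the X and Y multicopy families 1 rose and 2 fell, the 3 copies shown above, against 0.283% of all genes, with a median of 0.12 and 11 at an unadjusted p under 0.05, 2 higher and 9 lower, against 11.7% of all genes. In this list Magea3 and Slx passed the filter on reads only through 5NC, so that they had to be lower, and nothing is read from that split. The median of the list was -0.0074 without overexpression replicate 3, and the fit to only the 6 libraries compared also called Gm10096, lower. Among the lists without a call, 10 Y chromosome genes had a median of 0.05 (2 at an unadjusted p under 0.05), 28 imprinted genes 0.02 (3), 32 genes of DNA methylation and chromatin 0.03 (2), 20 germ-cell heat shock genes 0.09 (2), 33 apoptosis genes -0.17 (3) and 23 immediate early genes 0.05 (2). Of these 6 lists DESeq2 called Bcl2l14 among the apoptosis genes and Egr3 and Klf4 among the immediate early genes, all higher, against 1.35% of all tested genes, and no other. Dnmt3b, a DNA methyltransferase with the smallest p of the chromatin list, was at 7.29, 7.87 and 7.21 CPM in the overexpression group and 10.8, 9.35 and 8.62 CPM in 5NC (adjusted p = 0.339).

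The difference between the overexpression group and 5NC was also set against that between the knockdown group and 3NC in 1 contrast of the same fit. For 4 genes (0.0251% of those tested) the pair of differences was unequal at an adjusted p under 0.05, namely Gm40011, Hbb-bs, A530064D06Rik and Gm6121. In the first 3 it was the 5NC libraries that lay outside the other 9, and for Gm6121 it was those of the overexpression group. The first 3 passed the filter on reads only through the overexpression group.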

How the data were processed

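Per the study's methods, total RNA of F1 testis was enriched for messenger RNA with oligo(dT) beads and sequenced on an Illumina HiSeq, and reads were aligned to reference genes with SOAPaligner. The labels name mm10. The authors deposited 1 table of estimated counts per gene and FPKM values (fragments scaled to gene length and library size) for 20788 genes. Estimated counts with fractions, found in 17.3% of genes, were rounded to whole numbers. The table also held 18 columns of samples outside this series, which were not used. Names and coordinates came from RefSeq for GRCm38.p6, which matched 99.2% of genes, and coding sequences from GENCODE for GRCm38.

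Counts were fitted in edgeR 4.0.16 (R 4.3.3; quasi-likelihood test, TMM scaling, a coefficient for each of 4 groups, 12 libraries, 8 residual degrees of freedom), for genes with 10 or more reads in 3 or more of the 6 libraries compared. P-values were adjusted by Benjamini-Hochberg over 15912 genes, with a threshold of 0.05. Because 4 groups shared 1 estimate of the spread, leaving out any library changes every test. CPM are TMM-scaled, and errors of log2 fold changes are SE from the F statistic. No 2 of the 6 libraries agreed within sampling noise, with a chi-square of counts of 3.49 or more per degree of freedom. The depth sets the precision of genes with few reads, and intervals cover counting error only.

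The members and gene lists were chosen with earlier results of these data known. Genes named were the 15 higher and 15 lower with the smallest p, the called, smallest-p and highest-FPKM members of each list, and 7 genes whose proteins the study measured; the other 15 called genes, Hbb-bt, Hbb-b1, Hbb-b2, Slx, Crisp1, Gpx5, Lcn5, Ptprc and members called only by DESeq2 or in another fit were added after their values were seen. A called gene and a list member are not reported here. The analysis was tested on simulated counts. Alternatives were other scaling and filters, DESeq2 1.42.0, limma-trend (limma 3.58.1) on log2 CPM and on log2(FPKM + 0.1) of 14980 genes above 0.5 FPKM, a surrogate variable (sva 3.50.0), a replicate block, the study's thresholds and leaving out libraries.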

Additional observations from a re-analysis of the deposited data

Results flagged for a closer look

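For 4 genes the log2 difference between the overexpression group and 5NC minus that between the knockdown group and 3NC passed the test in the edgeR fit. It was 5.33 for Gm40011 (adjusted p = 0.00067), 9.51 for Hbb-bs (adjusted p = 0.00067), 5.32 for A530064D06Rik (adjusted p = 0.0057) and -3.22 for Gm6121 (adjusted p = 0.0085). The libraries of the overexpression group and 5NC did not overlap in any of them, as in all 45 called genes and in 21.4% of all tested genes. Gm40011, Hbb-bs and A530064D06Rik passed the filter on reads only through the overexpression group, so that 5NC had to be lower. The sizes for Hbb-bs and A530064D06Rik depend on how the fit treats the 0 to 2 reads a library in 5NC. No cause of these differences was tested.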

How the results depend on the processing

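Between the overexpression group and 5NC 9 of the 45 genes were called without each of the 6 libraries in turn and in every other alternative at an adjusted p of 0.05, namely Gm40011, Gm1993, Hbb-bs, A530064D06Rik, Gm6121, Gtf2ird2, Ccl28, Zfp286 and Gm14525, of which the first 5 also passed the study's stricter thresholds (adjusted p of 0.001, log2 fold change of 1). The number called moved from 45 to 73 with total counts (32 lower), 110 with only the 6 libraries (71 higher, 39 lower), 178 without the 2 libraries of high Ptprc (111 higher, 67 lower), 314 with DESeq2 (215 higher, 99 lower), 85 on FPKM (44 lower), 5 at the study's thresholds (4 higher, 1 lower), 187 with a surrogate variable (122 higher, 65 lower) and 9 to 36 with 1 library left out (6 to 17 higher, 3 to 22 lower, with more lower than higher only without 5NC replicate 1). Whether equal replicate numbers pair the libraries of 5NC and the overexpression group is not known. Deviations from the group mean correlated at 0.23, -0.14 and 0.19 for numbers 1, 2 and 3. For unlike numbers they ran from -0.36 to 0.26, and with 3 libraries a group these values cannot decide it. A replicate block left 20 genes (12 higher, 8 lower), 17 of them among the 45. Against 3NC and the knockdown group the 4 genes of the overexpression group became 24 with DESeq2, 1 at the study's thresholds and 3 to 7 with 1 library left out. The 111 genes of 5NC became 305 with total counts and on FPKM, 763 without the 2 libraries of high Ptprc, 51 with the replicate block, 758 with DESeq2, 3 at the study's thresholds, 1030 with the surrogate variable and 9 to 117 with 1 library left out (9 without 5NC replicate 3, 11 without 5NC replicate 2). The 4 genes of unequal differences became 42 with DESeq2, 2 at the study's thresholds, 7 with the surrogate variable and 3 to 6 with 1 library left out. The cause of these shifts was not tested. Of 1767 gene values 25 changed sign, all of genes without a call. With total counts and on FPKM the log2 fold changes became -0.0233 and -0.0282 for Ldhc, -0.0405 and -0.0471 for Aif1, -0.0188 and -0.0166 for Crisp2 and -0.0246 and -0.0239 for Trim28, and Aif1 was at -0.0064 with the surrogate variable. With 1 library left out they ran from -0.0136 to 0.0761 for Ldhc, -0.0003 to 0.3762 for Pgam2, -0.0433 to 0.1839 for Sox17, -0.0236 to 0.0296 for Aif1, -0.2025 to 0.7963 for Hba-a1, -0.0924 to 0.1147 for Crisp2, -0.2185 to 0.0161 for Hsp90aa1, -0.0533 to 0.1117 for Trim28 and -0.1159 to 0.0592 for Ddx4. Among list members without a call over the 12 libraries, besides those given for the interferon, antigen presentation, Leydig cell, epididymis and X and Y lists, edgeR called Esx1, Spata18, Bcl2l14 and Hbb-bt with only the 6 libraries, these with Sun5, Spo11, Dcst1, Adam1a, Hk1, Acsbg2 and Egr3 without the 2 libraries of high Ptprc, and all of these except Sun5 and Hk1 with the surrogate variable. Spo11 was also called with RLE factors, total counts, filterByExpr and both limma fits and without 5NC replicate 1, Esx1 and Spata18 with total counts and on FPKM, Esx1 without overexpression replicate 3, and Hbb-bt with filterByExpr, no filter and both limma fits. Of the 31 lists 17 kept the sign of their median in every alternative, and 42 of 527 list medians moved by more than the spread between libraries. Depth limits genes with few reads, such as Hbb-bs, Hbb-bt and A530064D06Rik in 5NC.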

Other observations

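Of the 45 called genes, 13 (28.9%) had another called gene within 2 Mb, against 8.61% of the 15824 tested genes with a position. The 13 include the near-identical X copies Gm1993, Gm6121 and Gm14525. They also include Antxrl and A630023A22Rik, which overlap. The reads of such genes cannot be told apart with certainty, so their calls may rest in part on the same reads. On chromosome 7 Nup98, Trim6, Hbb-bs and Dchs1 were all higher in the overexpression group, with Trim6 at 0.4 Mb, Nup98 at 1.66 Mb and Dchs1 at 1.94 Mb from Hbb-bs. On chromosome 2 Prom2 and Zfp661, both lower, were 0.0467 Mb apart, and 11 of 1239 tested genes of that chromosome were called (0.888%), against 0.283% of all tested genes. Chromosome 2 was picked as the one with the largest share, followed by chromosome 13 at 0.525%. On chromosome 11 Zfp286 was lower and Specc1, 0.681 Mb away, was higher. Neighboring genes are not independent of each other, and no test was made of these counts.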
